A study of Mus musculus with 8 samples.

Results

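Imprinted genes were examined in single hematopoietic stem cells (HSCs) of mice with and without Med23, a subunit of the Mediator complex. The genes were H19, Igf2, Igf2r, Meg3, Dlk1, Grb10, Ndn, Gnas, Peg3 and Impact, and those with a row in the expression table were taken. H19, Igf2r, Grb10, Ndn, Gnas and Impact had one, which is 6 of the 10 genes and 6 of the 10720 genes in the table. Igf2, Meg3, Dlk1 and Peg3 were not analysed here. The lowest mean count of any gene in the table was 0.201 UMI per cell over all 586 cells, so rarer genes had been left out of it. H19 and Igf2r lay just inside that level, at 0.403 and 0.326 UMI per cell, Grb10, Impact and Ndn at 1.502, 2.05 and 2.82, and Gnas at 19.4. H19 had 1 UMI in the kept cells labelled KO, so it reached the table through cells labelled WT and had to differ between the labels.

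HSCs came from bone marrow of adult C57BL/6 mice and were sorted by the CD150+CD34-CD48- phenotype within LSK cells (no lineage markers, Sca1 and c-Kit present), then picked by hand. Both groups carried the floxed Med23 L/L alleles and received poly(I:C), an inducer of interferon. WT mice were Mx1-cre-negative littermates, and KO mice carried the Mx1-cre transgene, which interferon switches on and which acts in other interferon-responsive cells as well. There were 4 libraries of each genotype, but a column of the table gives only the genotype and a cell number, so each label was 1 pool, no difference was tested and all 95% intervals cover counting error only. Of 304 WT and 282 KO cells, 259 and 234 had at least 2000 genes and 20000 unique molecular identifiers (UMIs, which count each captured RNA molecule once). They held 21475782 UMIs in WT and 16180546 in KO, with a median of 59649 and 50281 UMIs per cell. UMIs of a gene were clumped, with a median of 6 in a cell where the gene was found, so intervals that take UMIs as independent are too narrow. Med23 itself had 122 UMIs in 47 WT cells and 117 UMIs in 27 KO cells, of which 1 KO cell held 28. Per UMI the KO pool had a log2 ratio of 0.35 (-0.03 to 0.73), while the share of cells with Med23 was 18.1% in WT and 11.5% in KO, and 7.34% and 6.41% after thinning each cell to 20000 UMIs. Reads from the 3' end of a transcript need not cover the deleted exons, so these counts do not check the labels.

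WT and KO cells also differed in transcripts of oocytes. Zp3 encodes a protein of the egg coat, H1foo the oocyte linker histone, Dppa3 a maternal protein that protects DNA methylation in the zygote, and Gdf9 an oocyte growth factor. Their summed level, in CPM (UMIs of a gene per 1000000 UMIs), had a median of 88.3 over WT cells and 0 over KO cells, and reached 30388 CPM in WT and 830 CPM in KO. Cells over 1000 CPM are called oocyte-rich. There were 39 such WT cells, 15.1% of WT cells with 15.9% of WT UMIs, and 0 of 234 such KO cells. This class is a range of a level and not a cell type, since 29 WT cells and 5 KO cells lay between 500 and 2000 CPM. Over 19 oocyte genes the level was 12729 CPM in oocyte-rich WT cells and 330 CPM in other WT cells. The 13 HSC markers, such as Kit, Procr and Hlf, stood at 1453 and 1878 CPM in the same cells, so oocyte-rich cells also held HSC transcripts. Kit alone was at 150 CPM in oocyte-rich cells and at 152 CPM in cells with up to 30 CPM of the 4 oocyte genes. Of 10 stroma markers, 5 were in the table, and together they had 54.4 CPM in WT and 14.8 CPM in KO. They ran from 0 to 1580 CPM over WT cells and from 0 to 769 CPM over KO cells. At least 2-fold lower in KO were 4 of the 5, where 7.94% of all genes were. In WT and KO, Col1a1 had 345 and 4 UMIs, Sparc 199 and 3, and Col1a2 128 and 5. Lepr had 241 and 48 UMIs, and Pdgfrb 256 and 180. Col1a1, Sparc and Col1a2 reached the table through WT cells and had to be lower in KO. The part of stroma transcripts in the results was not tested.

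An imprinted gene is expressed mainly or only from the copy inherited from 1 parent. The choice is set by DNA methylation that is laid down in the egg or the sperm, at imprinting control regions, and kept after fertilization. Many imprinted genes govern fetal growth, and in adult marrow H19, Cdkn1c and Grb10 are known as genes of quiescent stem cells. Parental copies were not told apart in these counts, which are sums over both, and nothing below measures imprinting itself.

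The maternally expressed H19 yields a long noncoding RNA that is also the host of a microRNA. Both arms of miR-675, placed by RefSeq on GRCm38.p6, lie inside a GENCODE exon of H19 on the minus strand, miR-675-5p at chr7:142577112-142577133 and miR-675-3p at chr7:142577078-142577099. They are shown because a UMI of H19 is a molecule of this host RNA, while the mature miRNAs have no poly(A) tail and were not measured. Capitals mark the seed, bases 2 to 8 of the mature sequence, which pairs with targets, and the seeds of the arms are different.
mmu-miR-675-5p: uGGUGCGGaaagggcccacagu
mmu-miR-675-3p: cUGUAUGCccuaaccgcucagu

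Grb10 and Ndn had the lowest ratios after H19, and the 250 bases before a RefSeq start site of each are shown because their promoters differ in CG dinucleotides, the bases where imprints are written. Capitals mark CG, read on the strand of the gene. Windows were available for 4 of the 6 genes. The Ndn window, chr7:62348027-62348276 on the plus strand, holds 5 CG, and 55.6% of 32851 promoter windows hold as many or more. One of the Grb10 start sites, chr11:12037421-12037670 on the minus strand, has 40 CG, which 1.31% of windows reach, and the other has 8 CG. The median window holds 6, and 92.1% hold at least 1.
Ndn promoter: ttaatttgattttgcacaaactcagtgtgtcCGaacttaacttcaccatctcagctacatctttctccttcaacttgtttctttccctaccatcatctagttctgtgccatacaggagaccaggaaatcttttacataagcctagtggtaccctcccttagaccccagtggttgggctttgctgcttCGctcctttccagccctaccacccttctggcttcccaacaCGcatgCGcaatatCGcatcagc
Grb10 promoter: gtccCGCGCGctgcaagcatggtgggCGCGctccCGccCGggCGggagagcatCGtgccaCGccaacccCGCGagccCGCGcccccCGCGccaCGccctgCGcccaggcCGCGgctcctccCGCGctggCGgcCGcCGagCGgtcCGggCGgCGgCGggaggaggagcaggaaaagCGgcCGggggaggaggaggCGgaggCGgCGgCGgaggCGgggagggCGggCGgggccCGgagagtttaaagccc

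H19 had the lowest KO to WT ratio of the 6 genes. It had 232 UMIs in 25 of 259 WT cells and 1 UMI in 1 of 234 KO cells. In WT cells with a UMI its level ran from 2.51 over a median of 25.97 to 1468 CPM, and in the single KO cell it was 33.6 CPM. The pooled level was 10.8 CPM (9.46 to 12.3) in WT and 0.0618 CPM (0.00156 to 0.344) in KO. The KO to WT ratio was 0.00572 (0.000144 to 0.0322).

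These UMIs came from few cells. The 3 highest WT cells held 101, 50 and 39 UMIs, 81.9% of the total, at 1204, 1457 and 1468 CPM of H19. The other 22 cells held 42 UMIs, 14 of them with 1 UMI and 8 with 2 to 6. H19 was therefore high in 3 cells and near 1 molecule in most others. In the 3 cells 9, 10 and 9 of the 13 HSC markers were found, with 37, 33 and 2 UMIs of Kit, and of the 5 stroma genes Col1a1, Pdgfrb and Sparc were at 0 in all of them. Lepr had 1 UMI in the first cell. Col1a2, a collagen gene, had 27 UMIs in the second, 787 CPM, which was its highest level in any WT cell, and 0 in the others. Col1a1 was found in many of the other 22 cells, with up to 28 UMIs, and was at 0 in the rest. Sparc was found in fewer of them, with up to 18 UMIs. Over all WT cells Col1a1 was found in 50 and Sparc in 29. A link of H19 to stroma transcripts was not tested. Without the 3 highest H19 cells the log2 ratio, with the KO count raised to 3, was -3.40 instead of -5.86.

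**Figure D1:**
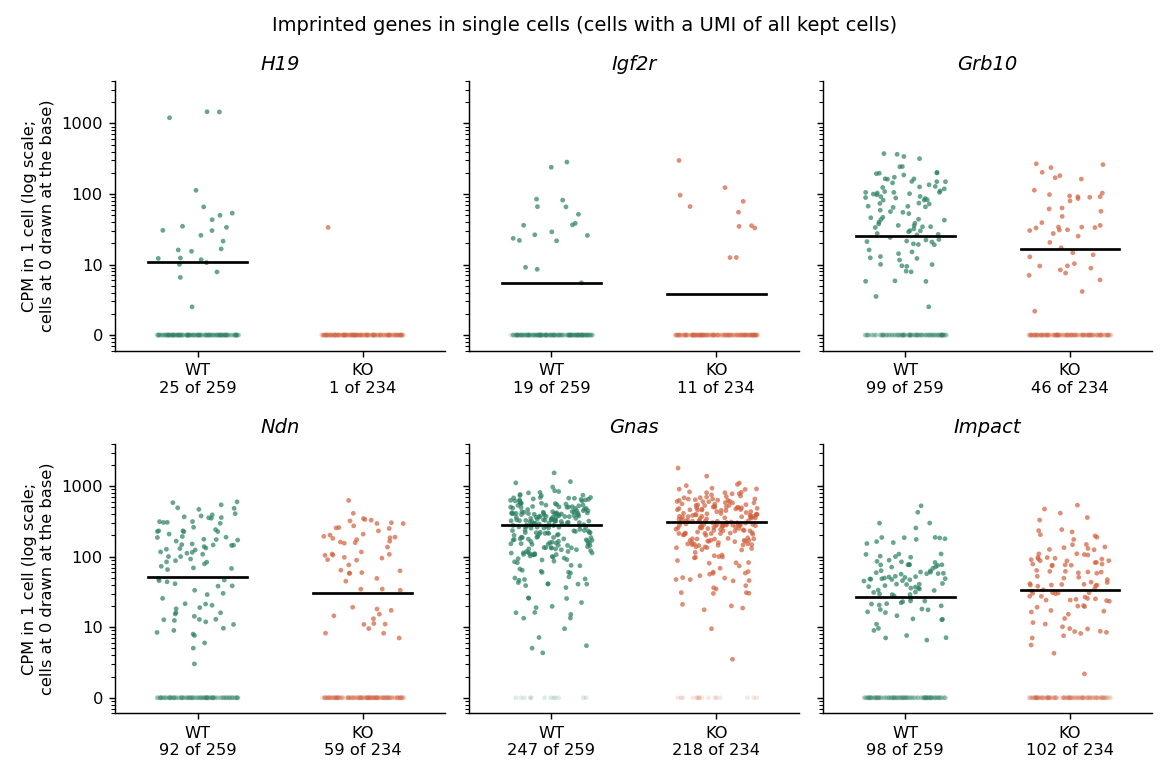
Level of each imprinted gene in single cells, in CPM on a log scale, for WT and KO cells. Each point is a cell, cells without a UMI are drawn at the base, black lines are pooled levels above 1 CPM, and the 3 WT cells above 1000 CPM of H19 stand apart from the other 22.

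Oocyte transcripts were present in the same cells as H19, as they were in 229 of 259 WT cells. At over 1000 CPM, 116 of the 232 WT UMIs of H19, 50% (43.4 to 56.6), lay in oocyte-rich cells, in 6 oocyte-rich and 19 other cells. The 3 highest cells had 1049, 641 and 978 CPM of the oocyte genes, on both sides of that level. The share accordingly was 91.8% over 300 CPM, where 27.3% of all WT UMIs lay, and 96.1% over 100 CPM, where 44.3% lay. Over 3000 CPM it was 6.03%, below the 10.7% of all UMIs. These shares followed the 3 highest cells, since H19 was also found in 4 of the 23 cells over 3000 CPM (17.4%), with 14 UMIs at 6.11 CPM, and these were 33.3% of the 42 UMIs outside the 3 cells. Without the highest oocyte-rich cell the share over 1000 CPM was 11.5%. Leaving Dppa3 out of the sum moved the share to 6.47%.

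None of the 25 WT cells with H19 had 0 CPM of the oocyte genes, but 229 of all 259 WT cells had some of them. Among cells with H19 the lowest had 26.8 CPM and the median cell 263 CPM, against the median of 88.3 CPM over all WT cells. Along this level H19 stood at 0.344 CPM in 67 WT cells of up to 30 CPM. In 72 cells of 30 to 100 it was 1.14 CPM, and in 48 cells of 100 to 300 it was 2.75 CPM. In 33 cells of 300 to 1000 it was 39.4 CPM, and in the 39 oocyte-rich cells 34.0 CPM. Of the 97 UMIs from 300 to 1000 CPM, single cells held 50 and 39, and 1 cell held 101 of the 116 in oocyte-rich cells. The rise above 300 CPM thus lay mostly in the 3 highest H19 cells. In cells of up to 100 CPM, 139 WT and 220 KO, H19 had 9 UMIs in 8 cells and 1 UMI in 1 cell, a ratio whose interval (0.00198 to 0.628) is wide. The KO cell with H19 had 0 CPM of the oocyte genes.

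**Figure D2:**
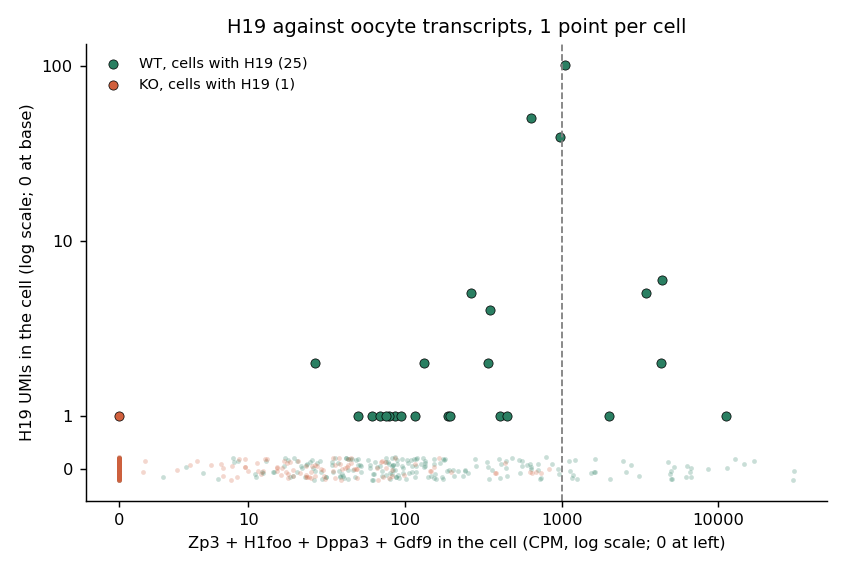
H19 UMIs per cell against the summed CPM of Zp3, H1foo, Dppa3 and Gdf9, both on log scales with 0 at the edge and the dashed line at 1000 CPM. Each point is a cell, and the 3 WT cells with 39, 50 and 101 UMIs lie at 978, 641 and 1049 CPM, around the line.

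The imprinted receptor Igf2r is expressed from the maternal copy and takes the growth factor IGF2 to the lysosome. It had 116 UMIs in 19 WT cells and 62 UMIs in 11 KO cells. Its level in cells with a UMI ran from 5.51 over 36.0 to 284 CPM in WT and from 12.6 over 55.2 to 299 CPM in KO, so the ranges overlapped almost throughout. The pooled log2 ratio was -0.50 (-0.96 to -0.04). Of its WT UMIs, 26.7% (18.9 to 35.7) lay in 5 oocyte-rich cells, 16 of 31 in 1 cell, and without that cell the share was 15%. Without oocyte-rich cells the log2 ratio was -0.30 (-0.79 to 0.19), and in cells of up to 100 CPM it was -0.00 (-0.58 to 0.58), with 47 and 60 UMIs. A difference in Igf2r was thus not detectable in those cells at this depth.

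Grb10, an adaptor that dampens insulin and IGF1 receptor signaling and is maternally expressed outside the brain, had 550 UMIs in 99 WT cells and 269 UMIs in 46 KO cells. In cells with a UMI it ran from 2.51 over 56.3 to 374 CPM in WT and from 2.18 over 34.0 to 268 CPM in KO. Single cells of the labels overlapped, while a smaller part of KO cells had any. The pooled level was 25.6 CPM (23.5 to 27.8) in WT and 16.6 CPM (14.7 to 18.7) in KO, a log2 ratio of -0.62 (-0.84 to -0.41). One KO cell held 95 of the 269 UMIs, and without the highest cell of each pool the log2 ratio was -1.16. Oocyte-rich cells held 8% (5.87 to 10.6) of WT Grb10 UMIs, below the 15.9% of all UMIs. In cells of up to 100 CPM of the oocyte genes the log2 ratio was -0.67 (-0.91 to -0.43), so pooled Grb10 was lower in KO there too.

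Ndn, which encodes the paternally expressed protein necdin, a regulator of growth and of HSC quiescence, had 1093 UMIs in 92 WT cells and 499 UMIs in 59 KO cells. In cells with a UMI it ran from 3.02 over 110.2 to 600 CPM in WT and from 7.04 over 106 to 628 CPM in KO. The level within cells that had Ndn was alike in range, and the pools differed in how many cells had it. The pooled level was 50.9 CPM (47.9 to 54.0) in WT and 30.8 CPM (28.2 to 33.7) in KO, a log2 ratio of -0.72 (-0.88 to -0.57). Its highest cell held 69 UMIs in WT and 38 in KO, 6.31% and 7.62% of the pool. Ndn was low in oocyte-rich cells, at 15.8 CPM against 57.5 CPM in other WT cells, and 4.94% (3.73 to 6.40) of its WT UMIs lay there. Without oocyte-rich cells the log2 ratio was -0.90 (-1.06 to -0.74), and in cells of up to 100 CPM it was -0.73 (-0.91 to -0.55).

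Gnas encodes the stimulatory G protein subunit, and its complex locus also yields imprinted transcripts from other promoters, which these counts do not separate. It was found in 247 WT and 218 KO cells with 6061 and 4949 UMIs. In those cells it ran from 4.33 over 265 to 1544 CPM in WT and from 3.52 over 285 to 1807 CPM in KO. Almost every cell had Gnas, unlike the other genes, and the labels overlapped throughout. The pooled level was 282 CPM (275 to 289) in WT and 306 CPM (297 to 315) in KO, a log2 ratio of 0.12 (0.06 to 0.17), and in cells of up to 100 CPM it was 0.04 (-0.02 to 0.10). Oocyte-rich cells held 12.7% (11.9 to 13.6) of its WT UMIs.

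Impact, a paternally expressed gene whose protein restrains the eIF2 alpha kinase GCN2, had 571 UMIs in 98 WT cells and 552 UMIs in 102 KO cells. Its level ran from 6.57 over 48.5 to 527 CPM in WT cells with a UMI and from 2.18 over 45.5 to 538 CPM in KO cells with a UMI. The labels overlapped throughout. The pooled level was 26.6 CPM (24.5 to 28.9) in WT and 34.1 CPM (31.3 to 37.1) in KO, a log2 ratio of 0.36 (0.19 to 0.53). Oocyte-rich cells held 26.8% (23.2 to 30.6) of its WT UMIs, at 44.9 CPM against 23.1 CPM elsewhere, and 1 cell held 74 of these 153 UMIs. Without that cell the share was 15.9%, that of all WT UMIs. Without oocyte-rich cells the log2 ratio was 0.56 (0.37 to 0.75), and in cells of up to 100 CPM it was 0.40 (0.20 to 0.61). With the authors' normalized values the log2 ratio over all kept cells was 0.0034.

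Read against all genes, the shares in oocyte-rich cells set H19, Igf2r and Impact above and Grb10, Ndn and Gnas below the 15.9% of all WT UMIs. Most of each excess above it lay in 1 cell. Without the highest oocyte-rich cell of the gene H19 had 11.5%, Igf2r 15% and Impact 15.9%. Grb10, Ndn and Gnas, already below it, had 6.30%, 3.97% and 11.1%. Leaving out that cell can only lower a share, and the 15.9% of all UMIs still counts it. In oocyte-rich and other WT cells, H19 was found in 15.4% and 8.64%, Igf2r in 12.8% and 6.36%, and Impact in 51.3% and 35.5%. Grb10 was found in 28.2% and 40%, Ndn in 30.8% and 36.4%, and Gnas in 100% and 94.5%. Among 9953 genes with at least 100 WT UMIs the median share of UMIs in oocyte-rich cells was 14.5%, from 3.57% at the 5th to 40.9% at the 95th percentile. A share above that of H19 was found in 3.29% of these genes, above that of Igf2r in 12.7% and above that of Impact in 12.6%. For Gnas it was 61.0%, for Grb10 84.3% and for Ndn 92.7%. H19 alone of the 6 had a share at least 2 times that of all UMIs, as did 8.61% of the 9953 genes. Over 3000 CPM Impact had 24.5%, and 13.3% without 1 cell that held 74 of its 140 UMIs there, against 10.7% of all UMIs.

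**Figure D3:**
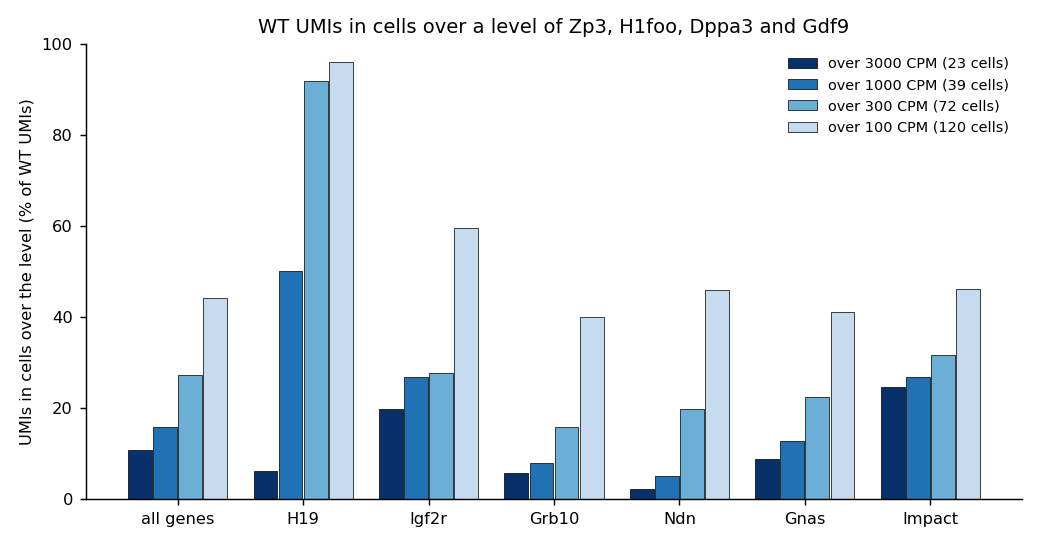
Percent of WT UMIs of all genes together and of each imprinted gene that lay in cells over 4 levels of the summed oocyte genes, in CPM, with the number of cells in the key. H19 goes from 6.03% over 3000 CPM to 91.8% over 300 CPM, while Grb10 and Ndn stay below all genes over 300, 1000 and 3000 CPM.

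To compare cells at equal depth, each cell was thinned to 20000 UMIs. H19 was then found in 5.41% (2.99 to 8.90) of WT and 0.427% (0.0108 to 2.36) of KO cells, and Igf2r in 3.86% (1.87 to 6.99) and 2.56% (0.947 to 5.50). Grb10 was found in 25.1% (19.9 to 30.8) and 11.97% (8.10 to 16.8), and Ndn in 27.4% (22.1 to 33.3) and 19.2% (14.4 to 24.9). Intervals of H19 and Grb10 did not overlap between the labels, and those of Igf2r and Ndn did. These intervals take cells as independent, and how often they part over all genes is not given here. Gnas was found in 86.5% (81.7 to 90.4) and 85.9% (80.8 to 90.1), and Impact in 23.9% (18.9 to 29.6) and 30.3% (24.5 to 36.7). Before thinning the shares were 9.65% and 0.427% for H19, 7.34% and 4.70% for Igf2r, 38.2% and 19.7% for Grb10, 35.5% and 25.2% for Ndn, 95.4% and 93.2% for Gnas, and 37.8% and 43.6% for Impact. Zp3, which blood cells should lack, was found in 48.3% of WT and 6.41% of KO cells after thinning. In WT every one of these genes but Gnas was at or below the Zp3 share. Where the Zp3 RNA came from was not tested, and its share need not be the background of another gene. No expression is read from those shares. In KO cells Grb10, Ndn, Impact and Gnas were above the Zp3 share of that label. In cells of up to 100 CPM of the oocyte genes Grb10 was at 27.3% (20.1 to 35.5) and 11.4% (7.49 to 16.3). Ndn was at 29.5% (22.1 to 37.8) and 18.6% (13.7 to 24.4), and Impact at 23.7% and 30.9%. Zp3 was at 25.9% and 3.64% there. It belongs to the sum that chose these cells, so its share in them gives no background level.

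No gene of the 6 was at least 2-fold higher in KO, which 6.98% of all 10720 genes were, and H19 was at least 2-fold lower, which 7.94% were. Without oocyte-rich cells 0 and 1 of the 6 were past 2-fold, where 7.82% of all genes were higher and 6.91% lower. In cells of up to 100 CPM it was 0 and 1 again, where 10.8% of all genes were higher and 6.95% lower. The median log2 ratio of the 6 genes was -0.56, against 0.02 over all genes, whose 5th and 95th percentiles were -1.45 and 1.18. Levels of the genes hardly varied together. Over the 259 WT cells Pearson's r of log2(CPM/100 + 1) for the 15 pairs lay between -0.07 and 0.14, as a description of cells that share libraries and depth. Cells could hold several of them, as 40 WT cells had both Grb10 and Ndn and 42 both Grb10 and Impact.

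The wider list of 72 imprinted genes had 33 in the table, the 6 genes above included, and the other members of the list were not analysed here. Their median log2 ratio was -0.11, with 20 below 0 and 13 above. Over all genes the median was 0.02 and 5158 of 10720 were below 0. At least 2-fold higher in KO were 3 of the 33, and 2 were at least 2-fold lower, near the 6.98% and 7.94% of all genes. Higher were Osbpl5, an oxysterol-binding-like protein gene, with 46 UMIs in 13 WT and 181 UMIs in 14 KO cells and a log2 ratio of 2.38 (1.91 to 2.88), Atp10a, a phospholipid flippase gene, with 133 UMIs in 29 and 298 UMIs in 43 cells and 1.57 (1.27 to 1.88), and the noncoding RNA Peg13 with 279 UMIs in 63 and 461 UMIs in 56 cells and 1.13 (0.92 to 1.35). One KO cell held 83 of the 181 Osbpl5 UMIs, and another 101 of the 461 Peg13 UMIs. With 46 UMIs in WT, Osbpl5 reached the table through KO cells and had to be higher there. Without the highest cell of each pool Osbpl5 was at 1.91 and Peg13 at 0.997, just under 2-fold, so 2 genes were then higher. Lower beside H19 was Zrsr1, a retrotransposed splicing factor gene, with 443 UMIs in 35 and 160 UMIs in 26 cells and -1.06 (-1.33 to -0.80). Peg13 lies within Trappc9 and Zrsr1 within Commd1, and whether counting used strand was not given in the sources used here, so reads of overlapping genes may be shared.

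Below the 2-fold level, Phlda2, a maternally expressed brake on placental growth, had 1088 UMIs in 87 WT cells and 466 UMIs in 35 KO cells, a log2 ratio of -0.81 (-0.97 to -0.66), and -1.06 in cells of up to 100 CPM of the oocyte genes. One KO cell held 206 of the 466 UMIs, and without the highest cell of each pool the log2 ratio was -1.47, past 2-fold. Ppp1r9a, the neurabin gene, had 1078 UMIs in 102 and 532 UMIs in 61 cells (-0.61), and Ago2, an Argonaute gene, 644 UMIs in 75 and 355 UMIs in 59 cells (-0.45). Trappc9 had 945 UMIs in 112 and 548 UMIs in 81 cells (-0.38). Casd1, Sgce and Jade1 were at 0.46, 0.43 and 0.38. Cdkn1c, which encodes the cell cycle inhibitor p57 known from quiescent HSCs, was at -0.17 (-0.33 to -0.01), with 770 UMIs in 76 and 516 UMIs in 65 cells. Herc3 had 69.2% (58.7 to 78.5) of its 91 WT UMIs in oocyte-rich cells, and its log2 ratio was -0.40 over all cells and 0.76 in cells of up to 100 CPM.

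In 5 of the 6 domains with several genes in the table log2 ratios lay on both sides of 0. From H19 to Osbpl5, in a stretch with 10 of the list's genes in the table, log2 ratios ran from -5.86 to 2.38 with a median of -0.10. In the domain of Ndn and Atp10a they ran from -0.72 to 1.57, and in that of Casd1, Sgce and Ppp1r9a from -0.61 to 0.46. They ran from -0.45 to 1.13 around Peg13 and from -1.06 to 0.11 for Zrsr1 and Commd1. Igf2r and Slc22a3 were both below 0, at -0.50 and -0.11.

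**Figure D4:**
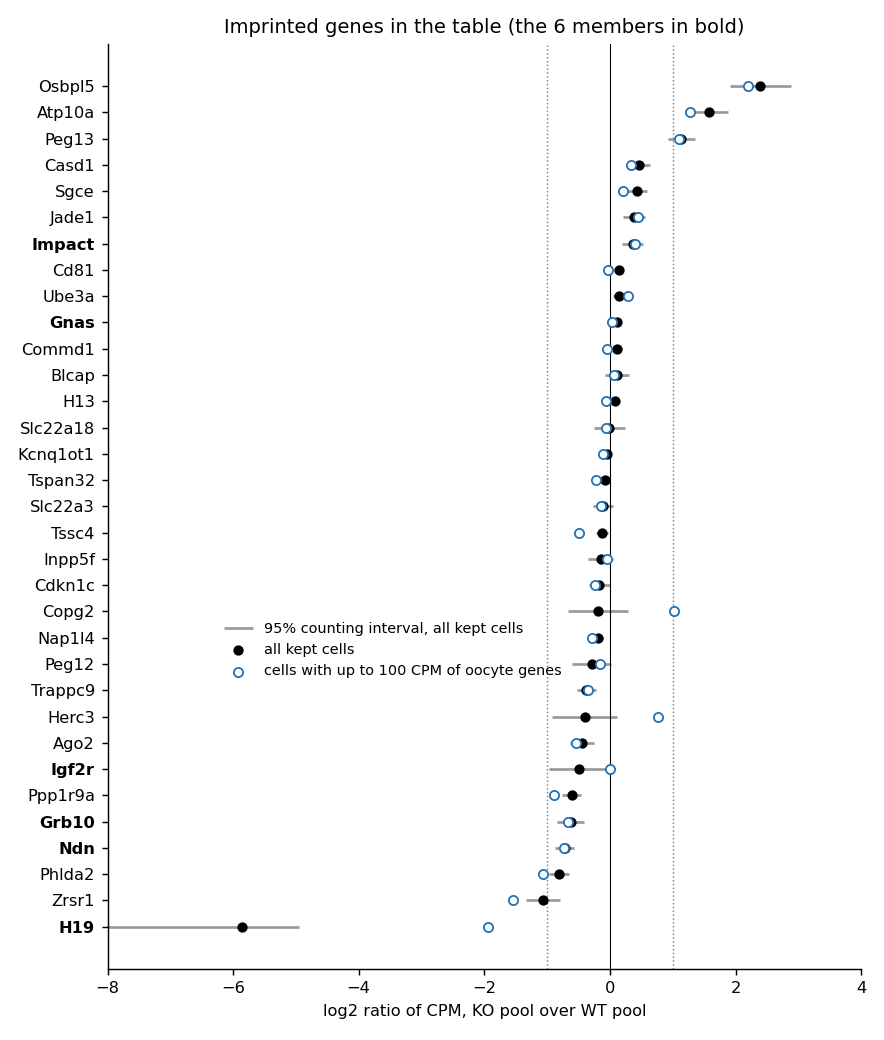
Log2 ratio of pooled CPM, KO over WT, for the 33 imprinted genes in the table. Black points are all kept cells with 95% counting intervals (that of H19 is drawn to -8), open points are cells of up to 100 CPM of the oocyte genes, dotted lines mark 2-fold, and counts of 1 were raised to 3 for the point of H19. Most genes lie within 2-fold, and the 6 genes of the report are in bold.

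Imprints are kept by a set of methylation and chromatin proteins, of which 16 of 18 listed genes were in the table. Their median log2 ratio was 0.28, and 0 genes were at least 2-fold higher and 2 at least 2-fold lower, where 6.98% and 7.94% of all genes were. These were Dppa3, with 7232 and 160 UMIs, which belongs to the sum that defines oocyte-rich cells, and Nlrp5, a gene of the oocyte's subcortical complex, with 1511 and 21 UMIs, of which 67.4% of the WT UMIs lay in oocyte-rich cells. Without Dppa3, 26.01% of the list's WT UMIs lay in these cells. With 21 KO UMIs, Nlrp5 reached the table through WT cells and had to be lower in KO. Zfp57, which binds methylated control regions, had 129 UMIs in 34 and 53 UMIs in 13 cells and a log2 ratio of -0.87. In cells of up to 100 CPM it was 1.54, on 14 WT and 52 KO UMIs. Its direction turned there on few UMIs, and over all KO cells 1 cell held 18 of the 53.

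Of the 18 listed genes of insulin-like growth factor signaling, 10 were in the table, with a median log2 ratio of 0.20, against 0.02 over all genes. Past 2-fold were 2 higher and 2 lower, where 6.98% and 7.94% of all genes were. Higher were Insr, the insulin receptor, with 109 UMIs in 20 WT and 237 UMIs in 37 KO cells (1.53), and the ligand gene Igf1 with 138 UMIs in 14 and 215 UMIs in 10 cells (1.05), of which 1 KO cell held 115. Without the highest cell of each pool Igf1 was at 0.57. Lower were Igf2bp2, an RNA-binding protein gene, with 320 UMIs in 41 WT and 15 UMIs in 3 KO cells (-4.01), and the IGF-binding protein gene Igfbp6 with 207 UMIs in 16 and 4 UMIs in 3 cells (-5.29). Like H19, both reached the table through WT cells and had to be lower in KO. Of WT Igfbp6 UMIs, 71.0% (64.3 to 77.1) lay in oocyte-rich cells and 1 cell held 118.

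The genes most like H19 over the 259 WT cells were Fyn, Map1b and Car1, with r of 0.44, 0.39 and 0.38, and without the 3 highest H19 cells these were -0.04, 0.27 and -0.02. Most like Igf2r was Ppp2r5a with 0.42, most like Grb10 Hemk1 with 0.30, most like Ndn E130311K13Rik with 0.31, most like Gnas Hnrnpab with 0.33 and most like Impact Agpat2 with 0.30. In sparse counts such values are weak.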

How the data were processed

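Single-cell RNA libraries were made from HSCs by oligo-dT priming with cell barcodes and UMIs. Per the study's methods, the authors aligned reads to the mm9 transcriptome, counted UMIs and filtered cells and genes, and deposited log2 values of the normalized UMI count with 1 added. Neither the aligner nor how counts were normalized is given in the sources used here.

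Each cell's values with the log2 undone were divided by its smallest value above 0. Within 0.01 of a count, 100% of values were whole (largest distance 0.0030), which gave UMIs. Cells with 2000 genes and 20000 UMIs were kept, 493 of 586. UMIs were summed per label. Ratios have exact Clopper-Pearson intervals, CPM exact Poisson and shares exact binomial intervals, at 95%. Counts were not scaled by length. A called gene differed at least 2-fold, with pooled counts under 3 raised to 3. Calculations used Python 3.11.15, NumPy 2.4.6, pandas 2.3.3 and SciPy 1.17.1, and were checked on simulated data. Doublets were not called. Columns without a label numbered 0.

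The members and lists were chosen with earlier results of these data known. Named genes were the members, up to 15 imprinted genes of at least 100 UMIs with the largest ratios or any past 2-fold, list genes of at least 100 UMIs past 2-fold, and the 3 genes most correlated with each member. Trappc9, Cdkn1c and Zfp57 fall outside that rule and were chosen after their values were seen. Sequences were RefSeq's on GRCm38.p6. The lists were members, imprinted genes, imprint maintenance, IGF pathway, oocyte, granulosa, stroma, endothelium, HSC and mature blood. Of granulosa markers, 1 of 11 was in the table (Inhba, 7.64 CPM in WT and 4.70 CPM in KO), of endothelium 6 of 7 (173 and 154 CPM) and of mature blood 3 of 9 (656 and 601 CPM).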

Additional observations from a re-analysis of the deposited data

How the results depend on the processing

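The columns carry no library, so leaving out a library and DESeq2 were not run. No paired analysis was possible because columns do not show which library a cell came from. Depth limits H19 in KO and Igf2r. Other scalings moved every log2 ratio by -0.03. Directions of members kept except Igf2r, whose log2 ratio was 0.0499 with the authors' normalized values. With those values Grb10 was -1.31, Gnas 0.0023 and Impact 0.0034. After thinning to 20000 UMIs H19 was -4.76, Grb10 -1.16 and Gnas 0.20. Without cells over 100 CPM of the oocyte genes H19 was -1.94, Igf2r -0.0012 and Gnas 0.0393. Without cells over 1000 CPM Ndn was -0.90 and Impact 0.56. Grb10 was -0.40 at a minimum of 3000 genes and 30000 UMIs and -1.16 without the top cell of each pool. H19 was -3.40 without its 3 top WT cells, an alternative chosen after seeing the data. Imprinted genes at least 2-fold lower numbered 1 with every cell of the table and 4 without the top cell of each pool, instead of 2. The cause of these shifts was not tested.

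Shares of WT UMIs in oocyte-rich cells moved with the level. Over 300 CPM they were 91.8% for H19, 15.8% for Grb10, 19.9% for Ndn, 22.5% for Gnas and 31.7% for Impact. Over 3000 CPM they were 6.03% for H19, 5.64% for Grb10, 2.20% for Ndn and 8.71% for Gnas. Without Dppa3 they were 6.47% for H19 and 11.9% for Gnas. With the authors' normalized values they were 35.1% for H19, 9.49% for Ndn and 14.6% for Gnas. By settings chosen after seeing the data, 19 oocyte markers over 1000 CPM gave 90.1% for H19, 13.1% for Grb10, 21.5% for Ndn, 19.7% for Gnas and 32.2% for Impact, and over 100 CPM the shares were 96.1% for H19, 59.5% for Igf2r, 40% for Grb10, 46.0% for Ndn, 41.1% for Gnas and 46.1% for Impact. Without the oocyte-rich cell with the most UMIs of the gene, also chosen after seeing the data, they were 11.5% for H19, 15% for Igf2r, 11.1% for Gnas and 15.9% for Impact.

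Shares of cells without thinning, in WT and KO, were 9.65% in WT for H19, 7.34% in WT for Igf2r, 38.2% and 19.7% for Grb10, 35.5% and 25.2% for Ndn, 95.4% and 93.2% for Gnas, and 37.8% and 43.6% for Impact. With at least 2 UMIs they were 1.93% and 0% for H19, 1.54% in WT for Igf2r, 14.7% and 5.98% for Grb10, 20.8% in WT for Ndn, 76.8% and 79.9% for Gnas, and 13.1% and 14.1% for Impact. At 10000 UMIs they were 2.70% and 0% for H19, 17.8% and 7.26% for Grb10, 78.4% and 78.2% for Gnas, and 20.1% in KO for Impact.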
